A study of Mus musculus with 24 samples.

Results

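A set of 9 transcription factors that drive or maintain the fat cell programme were followed in epididymal white fat, a visceral depot attached to the testis, of adult male mice fed with or without vitamin B3 in the form of nicotinamide riboside (NR). The 9 genes are Pparg, Cebpa, Rxra, Cebpb, Cebpd, Zfp423, Ebf1, Klf15 and Nr1h3. They were taken by name, as every array probe whose accession maps to one of these symbols. That gave 13 of the 55681 probes on the array, and 9 of the 13014 named genes among the 21051 features that were tested.

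Both groups were C57BL/6JRcc males. The No NR group (12 mice) was kept for 18 weeks on a semi-synthetic diet that held 0 mg NR per kg, and the Ctrl NR group (12 mice) ate the same diet with 30 mg per kg. All 24 mice had eaten the Ctrl NR diet for 2 weeks beforehand and were 28 or 29 weeks old at the end. Feeding before death was controlled in all of them, with 0.8 g of diet in the dark phase. They were killed after a fast followed by 4 h of refeeding with a weighed 1.8 g of diet. Fat supplied 40% of the energy of both diets, and tryptophan, from which the body can also make NAD, was kept low. The RNA of each mouse was labelled with Cy5 and hybridised on an array of its own against a Cy3-labelled reference, a pool of fat RNA to which other diets and females had contributed. Values are therefore log2 ratios of 1 mouse against that pool, and the spread over the 12 mice of a diet is a spread between animals. The tissue was whole fat pad, so fewer cells of a type and less RNA per cell cannot be told apart.

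PPARγ, encoded by Pparg, is the nuclear receptor without which fat cells do not form. It binds DNA as a dimer with the retinoid X receptor RXRα (Rxra) and, with C/EBPα (Cebpa), switches on and keeps on the genes of lipid storage. C/EBPβ and C/EBPδ (Cebpb, Cebpd), the zinc-finger protein ZFP423 and the early B cell factor EBF1 act before it in precursor cells, while KLF15 and the oxysterol receptor LXRα (Nr1h3) belong to the mature fat cell. C/EBPβ, LXRα and PPARγ are also made in macrophages, which gather in fat tissue of older and obese animals.

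No gene of the 9 passed the test for a diet difference, which was limma with Benjamini-Hochberg adjustment over all 21051 features and a threshold of 0.05. In that fit 0% of all features passed, the smallest adjusted p was 0.0568, and 2968 features (14.1%) had an unadjusted p under 0.05. Lower values in No NR were nonetheless common among the 9 genes. Ratios were lower in No NR for 8 genes, beside 52.4% of all features, and 4 genes (Cebpb, Rxra, Zfp423 and Ebf1) were lower at an unadjusted p under 0.05, beside 7.23% of all features. No member gene was higher at that level, beside 6.87% of all features. The median log2 fold change of the 9 genes, No NR minus Ctrl NR, was -0.16, and that of all features was -0.0064. The 9 genes were chosen with earlier results of these data known, and most were high or low in the same mice. They are therefore not independent draws from the array, and these counts were not tested against its shares. All 13 probes were bright enough to be kept, and 12 were well above background in Cy5 on all 24 arrays.

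**Figure D1:**
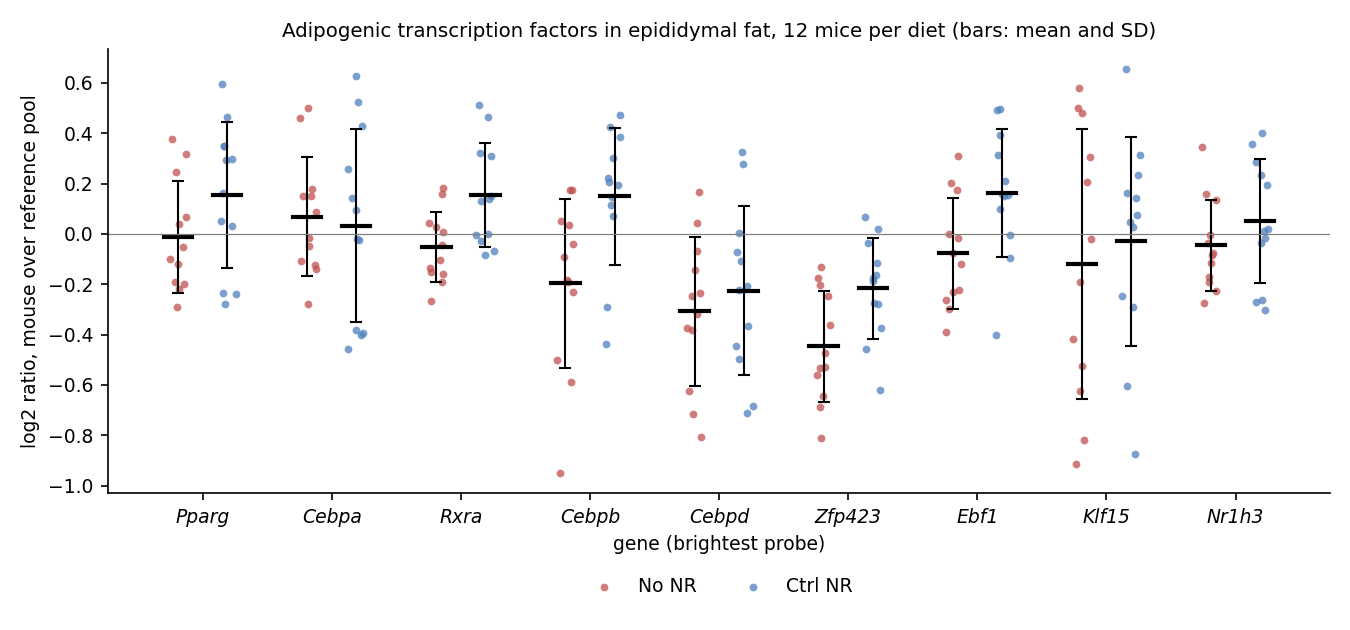
Log2 ratio of each mouse over the reference pool (vertical axis) for the brightest probe of each of the 9 genes (horizontal axis), with No NR mice in red to the left of Ctrl NR mice in blue and 12 mice per diet. Black bars give the mean and SD; the diets overlap in every gene, and all 12 No NR mice lie below the Ctrl NR median of 0.20 for Cebpb.

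Pparg was measured by 10 spots of 1 probe (accession NM_011146), more than any other member. Its log2 ratio had a lowest, median and highest value of -0.29, -0.076 and 0.38 in No NR mice, against -0.28, 0.23 and 0.60 in Ctrl NR mice. The diets overlapped over most of their range, although 9 of 12 No NR mice lay below the Ctrl NR median. The means were -0.011 ± 0.22 in No NR and 0.15 ± 0.29 in Ctrl NR (SD, n = 12 each), a log2 fold change of -0.16 with a 95% confidence interval of -0.37 to 0.044 (limma, unadjusted p = 0.116, adjusted p = 0.471). Raw Cy5 intensities, averaged over the spots of an array, ran from 3777 to 18537 scanner units in No NR and from 4749 to 14624 in Ctrl NR, with no saturated spot. The SD of the 10 spots within an array, which share 1 labelled RNA and so measure spot noise only, had a median of 0.13, and the SD between mice of a diet was 0.26. With the mean of 19 macrophage markers as a covariate, a fit added after seeing the data, the log2 fold change of Pparg was -0.080 (unadjusted p = 0.222), and with the adipocyte marker mean it was -0.13 (unadjusted p = 0.0573). It was -0.21 with the authors' value table (unadjusted p = 0.0455), -0.20 without Ctrl NR replicate 88 (unadjusted p = 0.0495), -0.35 with median centring and -0.054 with scaling between arrays (limma in each).

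RefSeq lists 3 starts for Pparg on chromosome 6 (build GRCm38.p6, 250 bases before to 50 after each start). The most downstream one is shown because it is the only one of the 3 that holds the loose C/EBP pattern TTNNGNAA, the kind of site through which C/EBP proteins can act. Capitals mark its 2 matches on either strand, the nearer of which begins 16 bases before the start.
Pparg, chr6:115421816-115422115, plus strand: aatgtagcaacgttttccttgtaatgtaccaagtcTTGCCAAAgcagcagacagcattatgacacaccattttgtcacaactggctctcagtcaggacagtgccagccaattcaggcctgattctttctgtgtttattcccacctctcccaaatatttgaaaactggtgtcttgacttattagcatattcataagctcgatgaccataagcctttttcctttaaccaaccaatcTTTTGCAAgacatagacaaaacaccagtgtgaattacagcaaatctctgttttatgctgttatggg
The pattern is present in 40.7% of the 32851 promoters of the table, and the stricter palindrome TTGCGCAA in 0.183% of them and in none of the 14 promoters listed for 8 of the 9 genes. The other 2 Pparg starts each hold 1 nuclear receptor half-site AGGTCA (16.3% of promoters) and no C/EBP match. A match describes the letters in the window only.

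Cebpa, the partner that keeps Pparg on in mature fat cells, was the 1 gene of the 9 that was not lower. Its log2 ratio had a lowest, median and highest value of -0.28, 0.036 and 0.50 in No NR, against -0.46, 0.037 and 0.63 in Ctrl NR. The medians were alike, and Ctrl NR held both the lowest and the highest mouse. The log2 fold change was 0.035 (95% confidence interval -0.22 to 0.29, limma adjusted p = 0.918), with means of 0.068 ± 0.24 in No NR and 0.033 ± 0.38 in Ctrl NR (SD, n = 12 each). The sign of so small a value was not fixed. It turned negative (at the lowest -0.0095) without Ctrl NR replicate 64, 88, 108 or 117 or No NR replicate 74 or 98. The value was also negative with arrays weighted by their fit to the diet means (-0.0095), and when ratios were centred on the median without loess (-0.12). Raw Cy5 intensities ran from 1496 to 5556 in No NR and from 1727 to 4656 in Ctrl NR.

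Rxra, whose protein is the dimer partner of PPARγ and of LXRα, was read by 2 probes of the same accession (NM_011305). The brighter one had a lowest, median and highest log2 ratio of -0.27, -0.073 and 0.18 in No NR, against -0.083, 0.14 and 0.51 in Ctrl NR. On this probe 6 No NR mice lay below every Ctrl NR mouse, and 4 Ctrl NR mice lay above every No NR mouse. The means were -0.052 ± 0.14 in No NR and 0.15 ± 0.21 in Ctrl NR (SD, n = 12 each), a log2 fold change of -0.21 (SE 0.073), or 0.867-fold, with an unadjusted p of 0.00907 and an adjusted p of 0.204 (limma). Its signal was dim, from 69.5 to 178 scanner units in No NR and from 81.5 to 156 in Ctrl NR. The second probe was well above background on 8 of 12 arrays in each diet. It gave a log2 fold change of -0.039 (95% confidence interval -0.16 to 0.081), and the 2 probes followed each other weakly over the 24 mice (r = 0.29). The lower Rxra value rests on 1 of 2 dim probes.

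The second RefSeq start of Rxra is shown because it holds 2 copies of the nuclear receptor half-site AGGTCA, in opposite directions. They begin at positions -87 and -48 relative to the start, so they do not adjoin, and whether a dimer reads them was not tested. Capitals mark the matches on either strand.
Rxra, chr2:27709042-27709341, plus strand: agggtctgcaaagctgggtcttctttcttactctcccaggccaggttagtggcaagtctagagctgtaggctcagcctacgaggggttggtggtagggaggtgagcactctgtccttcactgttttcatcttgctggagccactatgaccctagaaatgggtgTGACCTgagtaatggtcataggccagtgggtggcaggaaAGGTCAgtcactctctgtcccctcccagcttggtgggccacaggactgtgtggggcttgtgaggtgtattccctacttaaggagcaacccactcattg
The first start of Rxra has no match to AGGTCA, the C/EBP patterns, TGACG or CACGTG.

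Among the early factors, Cebpb showed the lowest log2 fold change of the 9 genes. C/EBPβ is among the first regulators that hormones and cAMP induce in precursor cells, and it activates Pparg and Cebpa. Its log2 ratio had a lowest, median and highest value of -0.95, -0.14 and 0.17 in No NR, against -0.44, 0.20 and 0.47 in Ctrl NR. All 12 No NR mice were below the Ctrl NR median, and 7 Ctrl NR mice were above every No NR mouse, but 2 Ctrl NR mice were also among the low values. The means were -0.20 ± 0.34 in No NR and 0.15 ± 0.27 in Ctrl NR (SD, n = 12 each). The log2 fold change was -0.35 (SE 0.12, 95% confidence interval -0.59 to -0.10), or 0.787-fold, with an unadjusted p of 0.00678 and an adjusted p of 0.188 (limma). The lowest mouse, No NR replicate 118, was not needed for this: without it the value was -0.28 (unadjusted p = 0.0132). Raw Cy5 intensities ran from 672 to 3453 in No NR and from 1284 to 3665 in Ctrl NR. With the macrophage marker mean as a covariate the log2 fold change was -0.34, and with the adipocyte marker mean -0.35, both fits added after seeing the data.

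The Cebpb promoter is shown because it is the member promoter with the most copies of TGACG, the core of the cAMP response element TGACGTCA. Capitals mark the 3 matches on either strand, the nearest of which begins 7 bases before the start.
Cebpb, chr2:167688665-167688964, plus strand: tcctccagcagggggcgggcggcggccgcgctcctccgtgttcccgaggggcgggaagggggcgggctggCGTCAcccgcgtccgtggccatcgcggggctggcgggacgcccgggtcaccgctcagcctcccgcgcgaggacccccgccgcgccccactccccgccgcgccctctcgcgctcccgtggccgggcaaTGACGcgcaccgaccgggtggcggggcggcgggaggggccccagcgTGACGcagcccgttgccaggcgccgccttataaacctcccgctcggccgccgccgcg
TGACG occurs in 20.8% of promoters and the full element, which contains it, in 1.79%; none of the 14 promoters holds the full element. The window also has no AGGTCA and no C/EBP match.

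Cebpd, which is induced together with Cebpb and with which it shares targets, had a smaller log2 fold change. Its log2 ratio had a lowest, median and highest value of -0.81, -0.28 and 0.17 in No NR, against -0.71, -0.21 and 0.32 in Ctrl NR. The diets overlapped nearly throughout. The log2 fold change was -0.082 with a 95% confidence interval of -0.33 to 0.17 (limma adjusted p = 0.785), and the difference between Cebpd and Cebpb in this value was not tested. The size of the Cebpd value was not settled: it was -0.21 with scaling between arrays (limma, unadjusted p = 0.155) and -0.23 with median centring, and leaving out 1 mouse moved it between -0.13 (without Ctrl NR replicate 115) and -0.032 (without Ctrl NR replicate 108). Raw Cy5 intensities ran from 1205 to 6216 in No NR and from 819 to 3815 in Ctrl NR.

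Zfp423, which marks precursor cells committed to the fat lineage and helps to keep white fat cells white, was read by 3 probes of the same accession (NM_033327). The brightest had a lowest, median and highest log2 ratio of -0.81, -0.50 and -0.13 in No NR, against -0.62, -0.18 and 0.068 in Ctrl NR. On it 10 of 12 No NR mice lay below the Ctrl NR median. The means were -0.45 ± 0.22 in No NR and -0.22 ± 0.20 in Ctrl NR (SD, n = 12 each), a log2 fold change of -0.23 (SE 0.085), or 0.852-fold, with an unadjusted p of 0.0112 and an adjusted p of 0.221 (limma). A second probe gave -0.23 as well (unadjusted p = 0.0128) and followed the first over the mice (r = 0.76); all 12 No NR mice were below the Ctrl NR median on it. The remaining probe gave -0.030 (95% confidence interval -0.21 to 0.15) and followed the others weakly (r = 0.31 and r = 0.15), so the probes of this gene disagreed. Raw Cy5 intensities of the brightest probe ran from 285 to 1212 in No NR and from 296 to 1012 in Ctrl NR.

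One of the 2 RefSeq promoters of Zfp423 is shown because it has 2 matches to the loose C/EBP pattern, the most of any member promoter together with the Pparg start above. Capitals mark them, and the strand is the minus strand of chromosome 8.
Zfp423, chr8:87959546-87959845, minus strand: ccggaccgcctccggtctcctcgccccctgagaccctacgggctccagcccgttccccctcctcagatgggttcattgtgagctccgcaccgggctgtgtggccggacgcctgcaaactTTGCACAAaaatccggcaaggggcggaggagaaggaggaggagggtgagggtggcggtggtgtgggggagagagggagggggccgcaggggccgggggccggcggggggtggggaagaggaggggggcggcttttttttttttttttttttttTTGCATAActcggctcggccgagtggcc
The other Zfp423 promoter holds 1 C/EBP match and 1 AGGTCA. Over all 14 promoters of the 8 genes that the table lists, 4 hold the loose C/EBP pattern and 4 hold AGGTCA.

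Ebf1 encodes a helix-loop-helix factor that promotes fat cell formation and is abundant in fat. Its log2 ratio had a lowest, median and highest value of -0.39, -0.097 and 0.31 in No NR, against -0.40, 0.16 and 0.50 in Ctrl NR. No NR mice lay below the Ctrl NR median in 9 of 12 cases, and 4 Ctrl NR mice lay above every No NR mouse. The means were -0.077 ± 0.22 in No NR and 0.16 ± 0.26 in Ctrl NR (SD, n = 12 each), a log2 fold change of -0.24 (SE 0.094), or 0.846-fold, with an unadjusted p of 0.0165 and an adjusted p of 0.252 (limma). Ebf1 was the only member to pass in any fit run. With arrays weighted by their fit to the diet means, its log2 fold change was -0.30 with an adjusted p of 0.0470 (limma), in a fit where 347 features passed. The lowest of these weights (0.35) went to Ctrl NR replicate 64, which also held the lowest Ebf1 value (-0.40). Raw Cy5 intensities ran from 477 to 2755 in No NR and from 661 to 2310 in Ctrl NR.

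The late factors varied between mice without a clear diet difference. Klf15, a Krüppel-like factor that glucocorticoids induce and that raises the glucose transporter GLUT4 in fat cells, had the widest spread of the 9 genes. Its log2 ratio had a lowest, median and highest value of -0.91, -0.11 and 0.58 in No NR, against -0.88, 0.061 and 0.65 in Ctrl NR, so that the diets covered nearly the same range. The means were -0.12 ± 0.54 in No NR and -0.030 ± 0.42 in Ctrl NR (SD, n = 12 each), a log2 fold change of -0.090 with a 95% confidence interval of -0.46 to 0.28 (limma adjusted p = 0.850). The sign turned with the macrophage marker mean as a covariate (0.050) and with scaling between arrays (0.0081). The value was -0.25 with arrays weighted by their fit to the diet means. Leaving out 1 mouse moved it between -0.17 (without Ctrl NR replicate 64) and -0.018 (without No NR replicate 61). Raw Cy5 intensities ran from 182 to 834 in No NR and from 162 to 582 in Ctrl NR.

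Nr1h3, whose receptor senses oxysterols and is itself a target of PPARγ, was read by 2 probes that followed each other closely over the mice (r = 0.91). The brighter one had a lowest, median and highest log2 ratio of -0.27, -0.078 and 0.35 in No NR, against -0.30, 0.015 and 0.40 in Ctrl NR. The diets overlapped over the whole range. The log2 fold change was -0.095 (95% confidence interval -0.27 to 0.082, limma adjusted p = 0.640) on this probe and -0.13 (-0.31 to 0.051, adjusted p = 0.520) on the other. On the brighter probe it was -0.27 with median centring, -0.014 with scaling between arrays and -0.033 with the macrophage marker mean as a covariate. Raw Cy5 intensities of the brighter probe ran from 2461 to 9823 in No NR and from 2572 to 9607 in Ctrl NR.

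**Figure D2:**
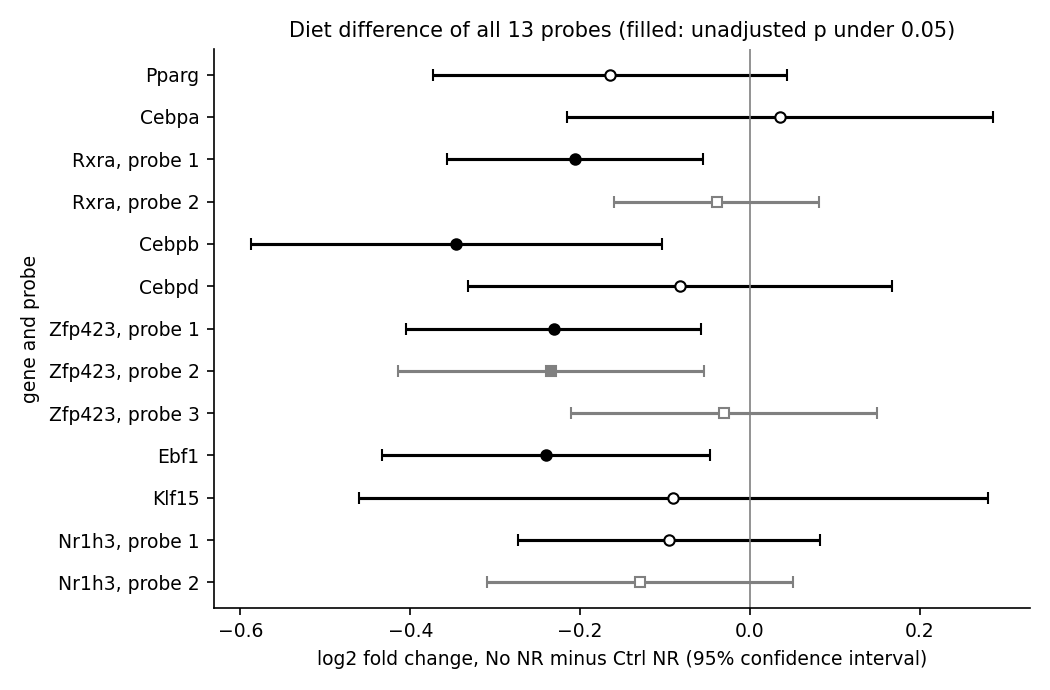
Log2 fold change, No NR minus Ctrl NR (horizontal axis), of all 13 probes of the 9 genes (rows), with 95% confidence intervals from limma over 12 mice per diet. Circles are the brightest probe of a gene and grey squares its other probes; filled symbols have an unadjusted p under 0.05, which none keeps after adjustment, and 12 of 13 probes lie below 0.

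The arrays lay on 5 slides, each scanned at a time of its own, and both diets were present on every slide (1, 3, 3, 2 and 3 No NR mice on slides 1 to 5, with 2, 2, 2, 4 and 2 Ctrl NR mice). Pparg, Rxra and Zfp423 were lower in No NR on all 5 slides, with slide differences of -0.46 to -0.042, -0.26 to -0.11 and -0.42 to -0.035. The share of all features lower on all 5 slides was not counted. These 3 genes also varied together over the mice (r between 0.73 and 0.79), so they are not separate observations. Cebpb was lower on 4 slides, where the differences were -1.20, -0.26, -0.45 and -0.35, and not on slide 2 (0.080); the lowest comes from slide 1, with the single No NR replicate 118. Ebf1 was lower on 4 slides, Cebpd, Klf15 and Nr1h3 on 3, and Cebpa on 2. With slide as a block the log2 fold change of Cebpb was -0.36 (unadjusted p = 0.00970), that of Rxra -0.19 (0.0254) and that of Zfp423 -0.24 (0.0189), while Ebf1 reached -0.20 with an unadjusted p of 0.0583, and no member passed after adjustment.

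The 4 genes with an unadjusted p under 0.05 were lower in No NR under all 18 other settings tried and without each of the 24 mice. They did not always keep that p. Their log2 fold changes could not differ in every setting. Keeping outlier spots, changing the filter on dim probes, taking every kept probe as a feature and letting the variance follow intensity left all 4 values unchanged. The 4 genes were also picked by their p in these same data, so their steady sign is little support. Over the 18 settings the log2 fold change stayed between -0.48 and -0.27 for Cebpb, between -0.27 and -0.12 for Rxra, between -0.36 and -0.17 for Ebf1 and between -0.32 and -0.16 for Zfp423. With the authors' processed signals only Cebpb kept an unadjusted p under 0.05 (0.000981, adjusted p = 0.0817), and with ratios centred on the median in place of loess none of the 9 genes did. Ebf1 lost it with Cy5 alone (0.0858) and Rxra with the authors' value table (0.0551), where Pparg had it (0.0455). The whole array shifted with these settings too. Of the features at an unadjusted p under 0.05, 51.3% were lower in No NR, against 21.0% with the authors' processed signals, 40.2% without background correction, 41.1% with Cy5 alone and 68.2% with median centring.

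**Figure D3:**
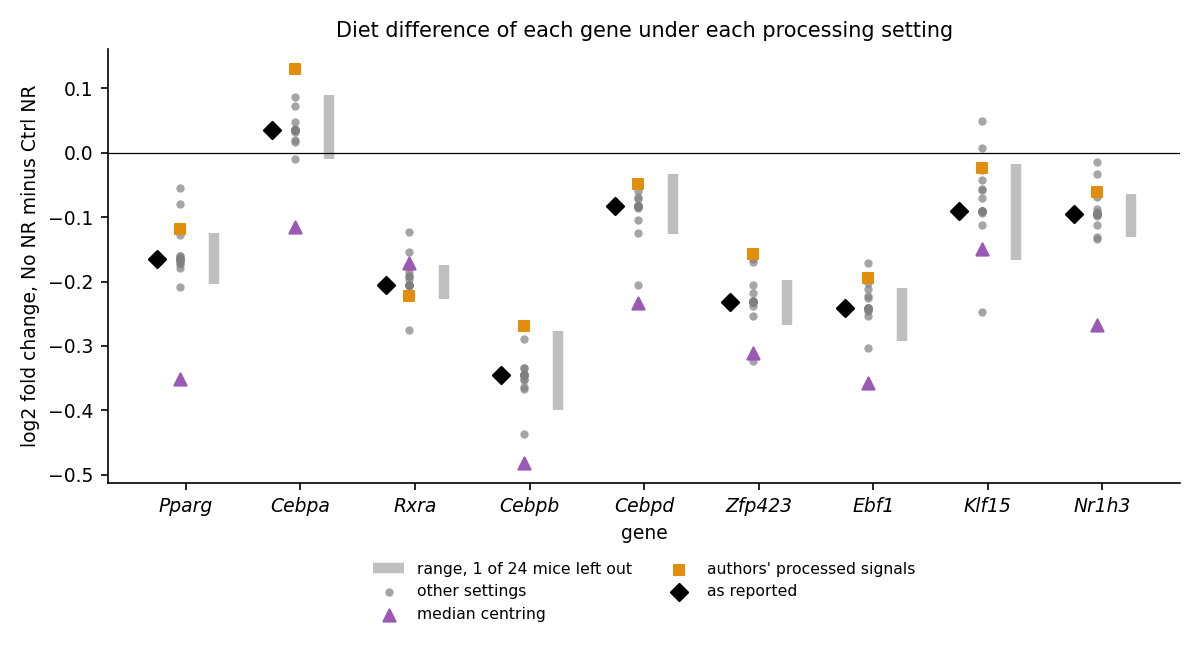
Log2 fold change, No NR minus Ctrl NR (vertical axis), of each of the 9 genes (horizontal axis) as reported (black diamonds), under 18 other processing settings (grey dots, with median centring as purple triangles and the authors' processed signals as orange squares) and as the range when each of the 24 mice is left out (grey bars). Cebpb, Rxra, Ebf1, Zfp423, Pparg, Cebpd and Nr1h3 stay below 0 throughout, while Cebpa and Klf15 cross it.

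Most of the 9 genes were high or low in the same mice. Over the 24 mice 31 of the 36 pairs had a positive Pearson r, with a median of 0.45, and 18 pairs, all positive, had an adjusted p under 0.05 (permutation tests with 100000 resamples, 2-sided, adjusted over the 36 pairs). The same shares among pairs of other genes were not counted. The closest pair was Pparg with Nr1h3 (r = 0.87, rho = 0.88, adjusted p = 0.00018, 0.85 without the 2 farthest mice). It was followed by Rxra with Zfp423 (r = 0.79, rho = 0.81, 0.76 without the 2 farthest mice, adjusted p = 0.00018) and Ebf1 with Zfp423 (r = 0.74, rho = 0.75, 0.66 without the 2 farthest mice, adjusted p = 0.000504). Their raw p-values of 1e-05 for the first 2 pairs are the smallest that 100000 permutations can give. With slide means removed these 3 values were 0.88, 0.81 and 0.81, and with diet means removed 0.87, 0.71 and 0.66. Each gene enters by its brightest probe alone, and the pairs were not computed for the other probes. For Rxra and Zfp423 the probes followed each other weakly in part (r = 0.29 for Rxra, 0.31 and 0.15 for 1 Zfp423 probe).

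Cebpd took little part in this, and Cebpb took less part than the other 7 genes by Pearson r. Of the 21 pairs among the other 7 genes 17 had an adjusted p under 0.05, with r between 0.39 and 0.87. Of the 15 pairs that include Cebpb or Cebpd 1 did by Pearson r, and r ranged from -0.17 to 0.46. That pair was Cebpb with Rxra (r = 0.46, rho = 0.51, 0.30 without the 2 farthest mice, adjusted p = 0.0472). By rank Cebpb also passed with Pparg (rho = 0.51, adjusted p = 0.0245), Nr1h3 (0.51, 0.0245) and Zfp423 (0.45, 0.0440, permutation tests). Over the 12 Ctrl NR mice these 3 pairs had an r of 0.66, 0.62 and 0.25. Over the 12 No NR mice it was -0.088, 0.084 and -0.0080. With diet means removed the r of Cebpb with Rxra was only 0.26. It was -0.19 over the 12 No NR mice and 0.67 over the 12 Ctrl NR mice. Cebpb and Cebpd had no relation with each other that passed (r = 0.048, rho = 0.042, adjusted p = 0.869). For these genes the sign could differ by diet: Pparg and Cebpd had an r of 0.57 over the 12 No NR mice and of -0.55 over the 12 Ctrl NR mice, a difference that was not tested. All these patterns depend on the normalization within arrays. With median centring in place of loess all 36 pairs were positive, with r between 0.50 and 0.98, those of Cebpb and Cebpd included.

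The 9 genes were then set against markers of the cells in the tissue. The 3 marker means used were those of 12 adipocyte genes, 19 macrophage genes and 12 genes of fibroblast-like progenitors. With the brightest probe of each of the 9 genes, 27 relations were computed. How many genes of the whole array relate to these means as strongly was not counted, so the relations are not shown to be particular to the 9 genes. All 12 adipocyte genes are also on the list of PPARγ and C/EBPα targets used below. For Pparg and Cebpa, a relation with fat cell content and one with their own targets cannot be told apart. For 7 genes (Pparg, Cebpa, Rxra, Zfp423, Ebf1, Klf15 and Nr1h3) the log2 ratio was higher in mice with higher adipocyte markers, with r between 0.62 and 0.81 and rho between 0.65 and 0.81 (permutation tests, adjusted p between 0.000116 and 0.00156). It was lower in mice with higher macrophage markers, with r between -0.85 and -0.73 and rho between -0.81 and -0.70 (adjusted p between 0.000116 and 0.000221). Without the 2 farthest mice these r lay between -0.79 and -0.62, with slide means removed between -0.89 and -0.73, and over the 12 Ctrl NR mice alone between -0.88 and -0.66. Over all 24 mice the largest gap in the macrophage mean was 15.4% of its range, but the No NR mice formed 2 separate sets on this axis, 4 mice between -0.85 and -0.65 and 8 mice between 0.31 and 0.97, and over the 8 mice r was -0.81 for Pparg, -0.86 for Zfp423, -0.73 for Rxra, -0.64 for Ebf1, -0.42 for Nr1h3, -0.38 for Klf15 and -0.34 for Cebpa.

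Cebpb and Cebpd had no relation to a marker mean that passed over the 24 mice, but their sign differed by diet. Over the No NR and then the Ctrl NR mice, r of Cebpb was 0.38 and -0.42 with macrophage, -0.44 and 0.37 with adipocyte and 0.56 and -0.57 with progenitor markers. For Cebpd these values were -0.36 and 0.26, 0.28 and -0.34, and -0.16 and 0.47. These differences were not tested. Over all 24 mice the progenitor mean had an r of -0.17 with Cebpb (rho = -0.41) and of 0.20 with Cebpd (rho = 0.050). Cebpb had an r over the 24 mice of -0.12 with macrophage markers and of -0.048 with adipocyte markers (rho = -0.22 and 0.14, adjusted p = 0.661 and 0.891). For Cebpd it was -0.026 and -0.010 (rho = -0.12 and 0.072, adjusted p = 0.941 and 0.963). The 3 marker means were themselves tightly related: the macrophage mean had an r of -0.95 with the adipocyte mean and of 0.88 with the progenitor mean. The progenitor mean was related to the same 7 genes, with r between -0.79 and -0.54 (rho between -0.83 and -0.49, adjusted p between 0.000116 and 0.00895). Without the 2 farthest mice these r lay between -0.79 and -0.46. Over the 12 No NR mice alone they were weaker for Cebpa (-0.29), Zfp423 (-0.34), Nr1h3 (-0.35) and Rxra (-0.45), and over the 12 Ctrl NR mice alone for Ebf1 (-0.43), differences that were not tested. With the authors' processed signals and with Cy5 alone the relations of the 7 genes kept their signs, while those of Cebpb and Cebpd, near 0, could turn (Cebpb with adipocyte markers at 0.11 and Cebpd with macrophage markers at 0.016 with the processed signals). With median centring the 7 genes stayed positively related to adipocyte markers, but their relation to macrophage markers turned positive, with r between 0.13 and 0.62, and Cebpb (0.65) and Cebpd (0.70) followed them as well. In that setting the macrophage and adipocyte means had an r of 0.32, against -0.95 with loess.

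**Figure D4:**
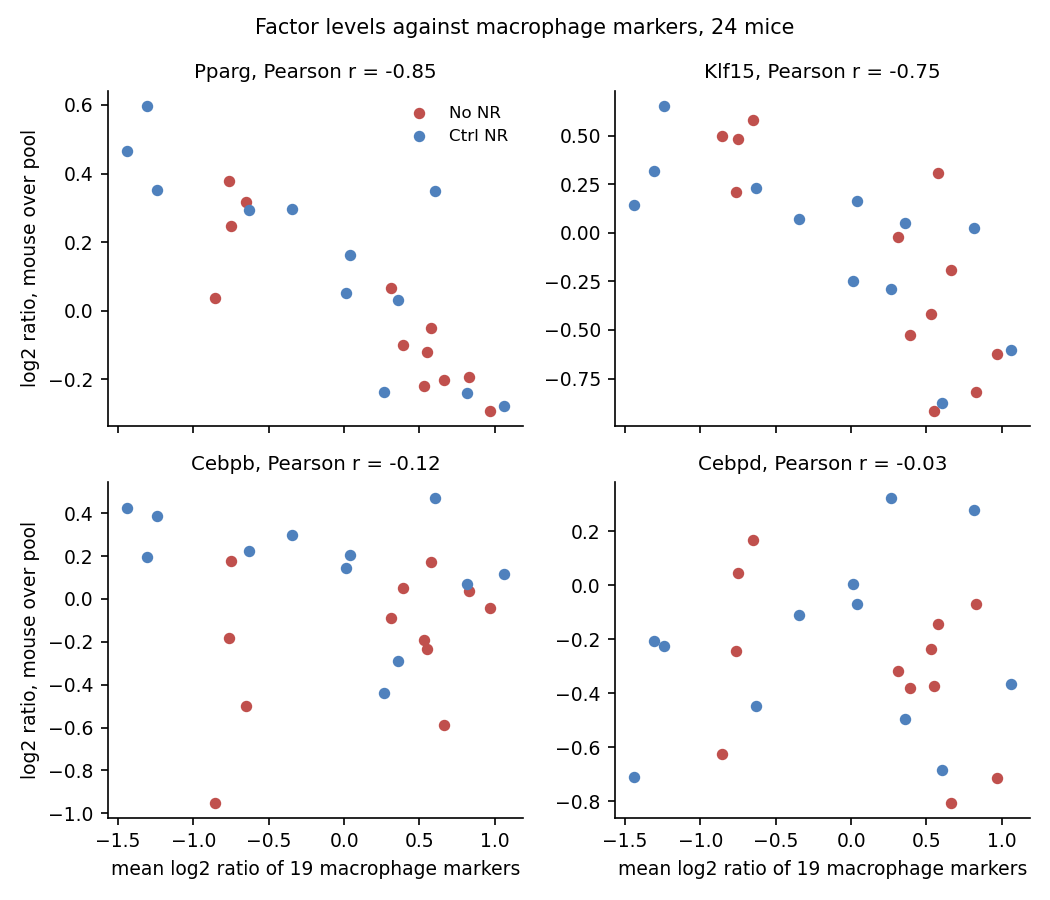
Log2 ratio of Pparg, Klf15, Cebpb and Cebpd (vertical axes) against the mean log2 ratio of 19 macrophage markers (horizontal axis) in each of the 24 mice, with No NR in red and Ctrl NR in blue. Pparg (r = -0.85) and Klf15 (r = -0.75) fall along the axis in both diets, while Cebpb (r = -0.12) and Cebpd (r = -0.03) do not follow it.

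**Figure D5:**
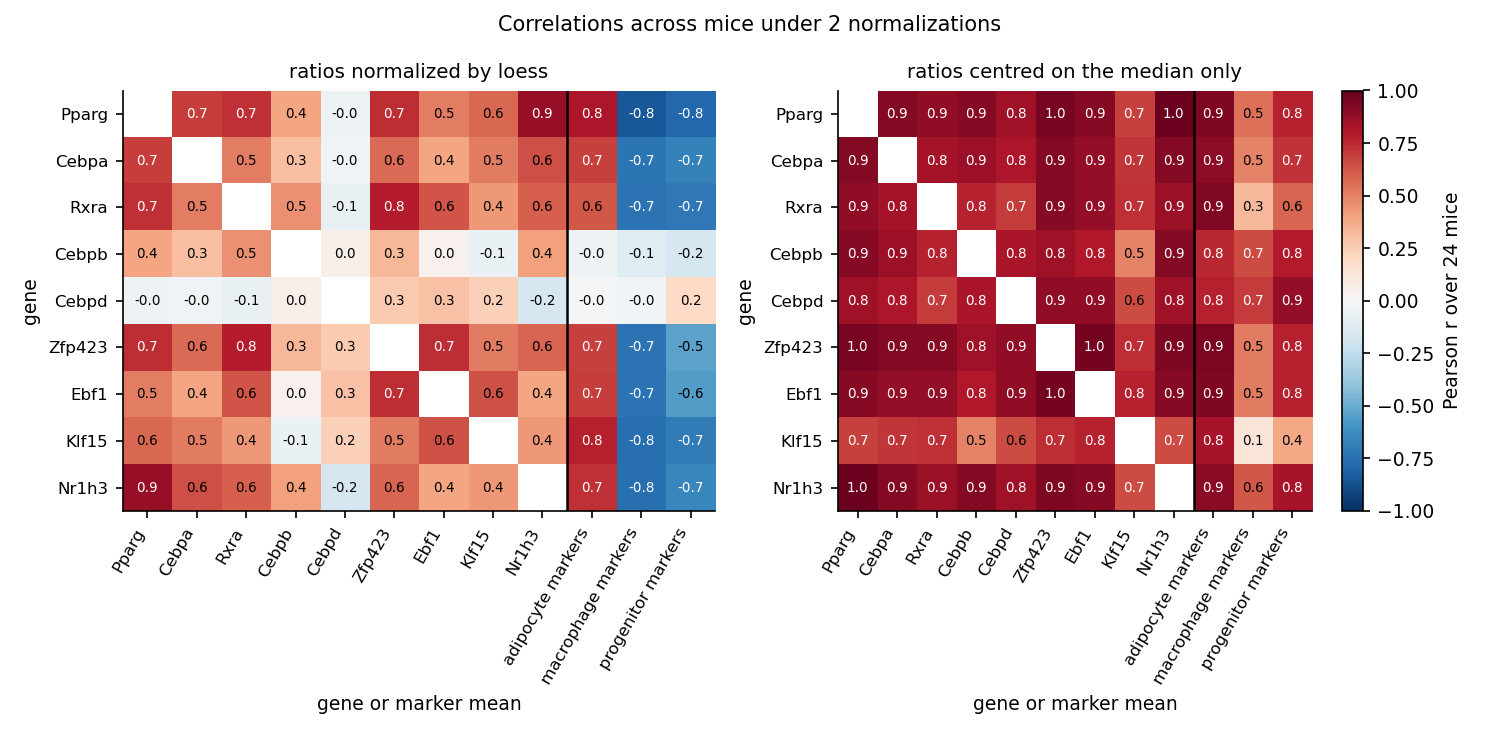
Pearson r over 24 mice between the 9 genes (rows) and the same genes and 3 marker means (columns, right of the line), with ratios normalized by loess (left) or only centred on the array median (right). With loess Cebpb and Cebpd form a pale band and the macrophage and progenitor columns are negative for the other 7 genes; with centring alone every value is positive.

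The markers were also compared between the diets, and none passed the adjusted threshold. For comparison with the counts here and in the lists that follow, 52.4% of all features were lower in No NR. At an unadjusted p under 0.05, 7.23% of all features were lower and 6.87% higher (limma). Of 19 macrophage markers 18 were higher in No NR, 0 at an unadjusted p under 0.05, with a median log2 fold change of 0.30. Their mean was 0.15 ± 0.69 in No NR and -0.15 ± 0.85 in Ctrl NR (SD, n = 12 each), with ranges of -0.85 to 0.97 and -1.44 to 1.06. The members with the lowest p were Msr1 (0.36), Lyz2 (0.39) and Tyrobp (0.53). Of 12 adipocyte markers 7 were lower and none had an unadjusted p under 0.05 (median -0.12); Aqp7 (-0.13), Retn (0.39, measured on 11 arrays per diet) and Lipe (-0.14) had the lowest p. All 12 adipocyte markers passed the filter on dim probes, so the defining genes of fat cells were detected in this tissue. Of the 12 progenitor markers 9 were higher, 1 of them at an unadjusted p under 0.05 (Dcn at 0.42, measured on 11 arrays per diet; Lum at 0.51 and Pdgfra at 0.22 did not), with a median of 0.12.

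With the macrophage mean as a covariate, the 4 genes Cebpb, Rxra, Ebf1 and Zfp423 still had an unadjusted p under 0.05, at log2 fold changes of -0.34, -0.15, -0.17 and -0.17. With the adipocyte mean they were -0.35, -0.19, -0.21 and -0.20. Neither fit brought a member past the adjusted threshold, although 83 and 166 of all features passed. Markers of other cells of the pad had values of the same size. Of 10 endothelial markers 7 were lower, 5 of them at an unadjusted p under 0.05 (median -0.19; Cdh5 -0.33, Eng -0.21, Kdr -0.31), and of 8 smooth muscle markers 7 were lower, 2 at that level (median -0.18; Des -0.19, Acta2 -0.31, Cnn1 -0.42). The endothelial mean followed Pparg, Nr1h3 and Zfp423 over the mice, with r of 0.76, 0.72 and 0.72 after diet means were removed, and its part in the diet values was not tested.

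All 8 mesothelial markers were lower (median -0.11; Krt19 -0.46, Krt8 -0.31, Msln -0.25), none at an unadjusted p under 0.05. Of 9 measured lymphocyte markers 5 were lower, 2 at that level, Cd79b (-0.56) and Ms4a1 (-0.60), which mark B cells. Of 12 epididymis and testis genes only 4 were bright enough to be measured. The 3 with the lowest p, the sperm transcripts Tnp1 (-0.43), Prm1 (-0.47) and Prm2 (-0.31), had SDs of 0.80 to 2.21 between mice of a diet, and no gene of the list had an unadjusted p under 0.05. The mean log2 ratio of that list ranged from -1.22 to 1.60 in No NR mice and from -1.01 to 2.88 in Ctrl NR mice, and its correlation with the 9 genes lay between -0.23 and 0.22.

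Among other factors that promote fat cell formation, 15 of 17 measured genes were lower in No NR, 5 of them at an unadjusted p under 0.05, and none passed after adjustment (median -0.075). Of all features 52.4% were lower, and 7.23% were lower at that level. Stat5a, which carries growth hormone and cytokine signals to fat genes, averaged -0.22 ± 0.13 in No NR and 0.025 ± 0.20 in Ctrl NR (SD, n = 12 each), a log2 fold change of -0.24 (limma adjusted p = 0.130). Its relative Stat5b was at -0.18 (adjusted p = 0.254). Srebf1, the activator of fatty acid synthesis genes, averaged -0.23 ± 0.29 in No NR and 0.19 ± 0.48 in Ctrl NR, a log2 fold change of -0.42 (adjusted p = 0.204). Factors that restrain fat cell formation were also mostly lower, 10 of 14, with 1 at an unadjusted p under 0.05 (median -0.071). These were led by Bhlhe40 (-0.22), a repressor of the clock family, Irf3 (-0.18), an interferon regulator, and Foxo1 (-0.16), which insulin keeps out of the nucleus.

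The dimer partners and coregulators of the nuclear receptors held the lowest p-values of any list. Of 18 genes 14 were lower and 2 of them had an unadjusted p under 0.05 (median -0.083). Rxrb, the sister of Rxra, averaged -0.43 ± 0.087 in No NR and -0.15 ± 0.18 in Ctrl NR (SD, n = 12 each), a log2 fold change of -0.28 with an unadjusted p of 0.000108 and an adjusted p of 0.0764 (limma). Ppard, a PPAR that favours fat burning, averaged -0.33 ± 0.13 in No NR and -0.046 ± 0.17 in Ctrl NR, a log2 fold change of -0.28 with an adjusted p of 0.0764. Hdac3, the deacetylase of the nuclear receptor corepressor complex, came next at -0.19 (adjusted p = 0.378).

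Targets of the 9 factors lay on both sides of 0. Of 26 targets of PPARγ and C/EBPα, 12 of which are also the adipocyte markers above, 14 were lower and 12 higher in No NR, with a median of -0.032 and 1 gene in each direction at an unadjusted p under 0.05. Lpl, the lipase that frees fatty acids from circulating lipoproteins, was at 0.28 (without a value for 1 Ctrl NR mouse) and Cdkn2c, an inhibitor of the cell cycle, at -0.35, and Lep, the hormone leptin, was at 0.26 with an unadjusted p of 0.103. Of 13 measured LXR targets 9 were higher and 4 lower (median 0.0087), with 1 lower gene at an unadjusted p under 0.05. That gene was Srebf1, given above, followed by the lipoprotein Apoe (-0.20) and the cholesterol exporter Abca1 (0.18). No list had a gene past the adjusted threshold.

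Genes that glucocorticoids induce and immediate early genes were set beside the rapidly inducible Cebpb, Cebpd and Klf15. Of 12 glucocorticoid-induced genes 7 were lower and 5 higher (median -0.052), and 1 had an unadjusted p under 0.05, the kinase gene Sgk1, at 0.31 with means of 0.089 ± 0.32 in No NR and -0.22 ± 0.42 in Ctrl NR (SD, n = 12 each). Pdk4 (-0.17) and Tsc22d3 (-0.087) came next. Of 11 measured immediate early genes 8 were lower (median -0.046), with Ier2 at -0.17 (unadjusted p = 0.0227), while Btg2 was at 0.16 and Fos at 0.46 (unadjusted p = 0.111) with SDs of 0.71 in No NR and 0.80 in Ctrl NR.

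The genes whose pattern over the 24 mice was most like that of each member were also listed. Taking the highest of so many values gives a high r by the choice alone, and none of them was tested. They are the 3 with the highest Pearson r among 12342 named genes after diet means were removed, which leaves the spread within diets, and the arrays' shared processing enters every such value. Pparg was closest to Orm3 (0.93), an acute phase glycoprotein gene, Gpihbp1 (0.92), which anchors lipoprotein lipase to capillaries, and Tmem120a (0.90). Nr1h3 shared Tmem120a with it (0.90), beside Por (0.90), the electron donor of cytochrome P450 enzymes, and Car3 (0.90), a carbonic anhydrase of fat and muscle. Cebpa was closest to Myl1, Cd164 and Kcns3 (0.91 each), Ebf1 to Dmtn (0.93), Smoc1 (0.92) and Mmut (0.90), and Klf15 to Rbpms2 (0.90), Dipk2a and Tdrp (0.89 each). Rxra was closest to Mul1, Rab3a (0.84 each) and Gcat (0.83), and Zfp423 to Arhgef28 (0.83), Glb1l2 (0.83) and C1qtnf12 (0.82). Cebpb was close to Ube2d2a (0.91), which encodes an enzyme of ubiquitin transfer, and Tomm5 (0.88). Cebpd had the lowest values, with Errfi1 (0.76), Hdgfl3 (0.72) and Penk (0.71), and Errfi1 is also on the list of glucocorticoid-induced genes.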

How the data were processed

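Whole fat-pad RNA of 24 mice was read on 24 Agilent 2-colour arrays of 62976 spots, each mouse in Cy5 against a common Cy3 pool, all in the same dye orientation. The deposited scanner files give median spot intensity and background intensity on a linear scale, and processed intensities from which the authors' Agilent Feature Extraction 10.7.3.1 had removed background and dye bias, per the file headers. Other columns hold yes or no flags per spot, per the file headers. The authors' deposited value table covers 26384 features in log2 units. Each column tracked the log2 Cy5 signal of its array (r of 0.99 or more) but not its log ratio (r of 0.069 or less), with a median of 8.04. Higher means brighter there; how it was normalized and filtered is not given in the sources used.

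Background was corrected with normexp (offset 50) and ratios were normalized by loess within arrays, control spots weighted 0, using limma 3.58.1 (R 4.3.3). Control and outlier-flagged spots were left out (9 outlier spots among the member probes, all of Pparg), and spots of a probe were averaged. A probe was kept when well above background in Cy5 on at least 6 of 12 arrays of either diet (24769 of 55681 probes, where between 34.5% and 50.7% of an array's spots reached that level). Probes were named through RefSeq accessions without versions (27235 matched 1 symbol, 28446 none), and a gene was represented by its brightest kept probe. The number of arrays limits the precision. Diets were compared by lmFit and eBayes, with diet as the only term and Benjamini-Hochberg adjustment over 21051 features. Correlations used permutation tests with 100000 resamples in Python 3.11.15 with numpy 2.4.6. Both methods were tested on simulated data.

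Genes named are the 9 members with all their probes, the 3 measured genes with the lowest unadjusted p of each of 15 lists, and the 3 genes most like each member. Withheld genes are not reported here. The members and lists were chosen with earlier results of these data known. Promoters came from a RefSeq table of build GRCm38.p6, which matched 8 of the 9 genes (none for Cebpd). The array headers name the build mm9, and no coordinates were converted. Other settings tried were the background correction, normalization, filter, probe rule, slide, variance model, array weights and each mouse left out. The labels number the mice individually, and the p-values measure the spread between mice.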

Additional observations from a re-analysis of the deposited data

How the results depend on the processing

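No paired analysis was possible because no animal number occurs in both diets. Of 378 log2 fold changes of the 9 genes under other settings, 367 kept their direction and their side of the adjusted threshold and 10 turned sign. Those were Cebpa with median centring (-0.12), with array weights (-0.0095) and without 1 of 6 mice (leave-one-out range -0.0095 to 0.089), and Klf15 with scaling between arrays (0.0081) and with the macrophage mean as a covariate (0.050). The 378 include settings that left the value of a gene unchanged. No member passed in the reported fit, so keeping its side of the threshold meant only that a gene again did not pass. The number of member genes past the adjusted threshold was 1 with array weights and 0 otherwise. The number lower at an unadjusted p under 0.05 was 1 with the authors' processed signals, 0 with median centring, and 4 to 5 when 1 mouse was left out (5 without Ctrl NR replicate 88, where Pparg reached -0.20 at an unadjusted p of 0.0495).

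Of all features, 0 passed the adjusted threshold in the reported limma fit, although 2968 had an unadjusted p under 0.05. The passing number was 2 with normexp offset 16, 3 when a probe had to be well above background on all 24 arrays, 347 with array weights, and 83 and 166 with the macrophage and adipocyte means as covariates, which were chosen after seeing the data. It ranged from 0 to 227 when 1 mouse was left out, with 227 without Ctrl NR replicate 68, 220 without 117, 80 without 104, 34 without 75, 9 without 77, 3 without No NR replicate 78 and 2 without 118. The number at an unadjusted p under 0.05 was 264 with median centring and 4557 without a filter on dim probes, where 49106 features were tested. The cause was not tested.

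Across mice, median centring turned the sign of correlations. With macrophage markers r became 0.55 for Pparg, 0.49 for Cebpa, 0.65 for Cebpb, 0.70 for Cebpd, 0.13 for Klf15, 0.32 for Rxra, 0.52 for Ebf1, 0.52 for Zfp423 and 0.62 for Nr1h3. With progenitor markers it became 0.77 for Pparg, 0.72 for Cebpa, 0.79 for Cebpb, 0.39 for Klf15, 0.58 for Rxra, 0.77 for Ebf1, 0.78 for Zfp423 and 0.83 for Nr1h3. With adipocyte markers it became 0.76 for Cebpb and 0.78 for Cebpd. Between members it became 0.85 for Pparg with Cebpd, 0.81 for Cebpa with Cebpd, 0.50 for Cebpb with Klf15, 0.70 for Cebpd with Rxra and 0.85 for Cebpd with Nr1h3. The authors' processed signals, Cy5 alone and removal of slide means turned no marker correlation that had passed, and 1 no longer passed (Zfp423 with progenitor markers, -0.38, processed signals). Of the 18 pairs of members that had passed, 1 no longer did with the processed signals and 2 with Cy5 alone. Both probes of Rxra were dim, which limits what can be said of that gene.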
